A study of Homo sapiens with 10 samples.

Results

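Matrix metalloproteinases (MMPs) and their tissue inhibitors (TIMPs) were examined in 2 human glioblastoma cell lines in which the homeobox transcription factor MEOX2 was lowered or raised. The set holds 10 genes, matched by symbol among the 34567 genes of the deposited table: the collagenase MMP1, the stromelysin MMP3, the gelatinases MMP2 and MMP9, the membrane-type enzymes MMP14 and MMP15, the related secreted protease ADAMTS1, and the inhibitors TIMP1, TIMP2 and TIMP3. The genes were chosen by name and not by a value, but with earlier results of these data known. All 10 passed the filter on low counts, but MMP9 passed it only through SNB19 cells, TIMP3 only through U87 cells and MMP1 only because of U87 MEOX2 OE.

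MMPs are zinc-dependent endopeptidases made as inactive precursors, which are activated when an amino-terminal propeptide is removed. Most are secreted, whereas MMP14 and MMP15 are anchored in the plasma membrane, and together they cleave collagens, proteoglycans and other matrix proteins around invading cells. TIMPs occupy the active site zinc and block the enzymes, and TIMP2 has a further role, since it forms the bridge through which MMP14 binds and activates proMMP2. In glioblastoma, MMP2, MMP9 and MMP14 are among the enzymes best known from studies of invasion through brain tissue.

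RNA sequencing was performed on 10 libraries from 4 groups. SNB19 cells received scramble siRNA (SNB19 control, n = 3) or MEOX2 siRNA (SNB19 siMEOX2, n = 3) by lipid transfection, and U87 cells received lentivirus carrying an empty vector (U87 EV, n = 2) or MEOX2 (U87 MEOX2 OE, n = 2). The cells of every group were grown in the same serum-containing medium. The study describes its lentiviral U87 cells as stable lines selected with puromycin, and its siRNA transfection as transient. Its RNA sequencing methods give no time of harvest. The study describes a pair of MEOX2 siRNAs and the sample labels do not say which was used. Neither source used here says whether replicates were separate cultures, so p-values measure the spread between these libraries, which may be technical.

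The libraries held 12533775 to 16560324 counts. Levels are given as deposited FPKM (counts scaled to gene length and to the total of the library), and comparisons come from 1 edgeR quasi-likelihood fit of the counts of 17312 genes in all 10 libraries, in which a gene was called changed at a Benjamini-Hochberg adjusted p under 0.05. One library stood apart. U87 EV replicate 1 had a summed FPKM of 355931, against 257892 to 274893 elsewhere, and a read-weighted mean gene length of 4774 bp, against 5984 to 6404 bp. It differed from U87 EV replicate 2 by a median of 0.73 (absolute log2 difference over genes), where the other pairs of 1 group differed by 0.11 to 0.17. Fitted fold changes that involve U87 are therefore given with and without it, and so are the counts of called genes. Leaving out either EV library leaves 1 in that group, so those fits hold no spread between U87 EV libraries. Their p-values and calls against U87 EV do not measure that spread. With all libraries 15.7% of genes were called after knockdown and 26.2% after overexpression, and without U87 EV replicate 1 these shares were 47.1% and 38.9%, so counts from the 2 fits are each read against their own share.

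A list of 8 markers of glioma lines was checked, of which 4 to 6 were at 1 FPKM or more in every library. This count does not establish glial identity, since glial genes of the list differed among themselves. VIM, an intermediate filament of glioma cells, was at 81.4 to 163 FPKM in SNB19 libraries and 117 to 687 FPKM in U87 libraries. The astrocyte filament GFAP was below 0.40 FPKM in all 10 libraries, and the glial stem cell factor SOX2 was at 12.4 to 14.4 FPKM in SNB19 control and at most 0.10 FPKM in U87. S100B was at most 0.22 FPKM in SNB19 and had no read in U87, while OLIG2 was at 1.13 to 6.50 FPKM over all libraries. The 4 immune markers summed to less than 1 FPKM in every library.

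The enzymes share the zinc-binding histidines and the glutamate of the catalytic centre, and the codons for them, which vary between genes, are shown. Each line gives 36 bases of coding sequence, 5′ to 3′ on the coding strand (GENCODE v29, GRCh38), with the zinc-binding histidine codons, the catalytic glutamate codon and the codon 8 of the stretch in capitals.
MMP1 (chr11:102795546-102795581, minus strand, exon 5): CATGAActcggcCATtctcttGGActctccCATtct
MMP3 (chr11:102840532-102840567, minus strand, exon 5): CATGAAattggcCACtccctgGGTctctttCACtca
MMP2 (chr16:55491827-55491862, plus strand, exon 8): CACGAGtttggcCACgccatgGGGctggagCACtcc
MMP9 (chr20:46012453-46012488, plus strand, exon 8): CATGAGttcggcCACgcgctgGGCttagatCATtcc
MMP14 (chr14:22843283-22843318, plus strand, exon 5): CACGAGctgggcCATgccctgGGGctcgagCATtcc
MMP15 (chr16:58040563-58040598, plus strand, exon 5): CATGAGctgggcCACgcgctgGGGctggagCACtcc
ADAMTS1 (chr21:26841140-26841867, minus strand, split between exons 3 and 4): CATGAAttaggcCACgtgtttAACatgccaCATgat
Codon 8 encodes glycine in the 6 MMPs and asparagine in ADAMTS1. Between MMPs the stretch was identical at 20 to 31 of 36 bases. The highest value, 31, was found for MMP14 with MMP15 and equally for MMP2 with MMP15. Between ADAMTS1 and the MMPs the stretch was identical at 16 to 21.

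The inhibitors carry instead the cysteine codons at the start of the mature protein, the first of which encodes the residue that contacts the active site zinc. The 24 bases of each TIMP are shown, with these cysteine codons in capitals.
TIMP1 (chrX:47583485-47583508, plus strand, exon 2): TGCaccTGTgtcccaccccaccca
TIMP2 (chr17:78924987-78925010, minus strand, exon 1): TGCagcTGCtccccggtgcacccg
TIMP3 (chr22:32802071-32802094, plus strand, exon 1): TGCacaTGCtcgcccagccacccc
The TIMP stretches were identical in pairs at 15 or 16 of 24 bases.

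MEOX2 was checked first. In SNB19 control it was at 6.01, 6.53 and 7.09 FPKM, and in SNB19 siMEOX2 it was at 1.38, 1.11 and 1.39 FPKM. MEOX2 fell by 2.42 on the log2 scale (SE 0.14, edgeR adjusted p = 9.1e-05), with no overlap between groups. No MEOX2 read was counted in either U87 EV library, while the U87 MEOX2 OE libraries held 4999 and 5308 reads (160 and 145 FPKM), which is at least 3821-fold higher against a floor of 3 reads over the EV group. The libraries therefore matched the direction of their labels. The comparison in SNB19 lowered MEOX2 from an expressed level, and the one in U87 raised it from no counted read to a level above that of SNB19.

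Knockdown of MEOX2 in SNB19 lowered most of the set. Of the 10 genes, 8 were called, 2 higher (MMP3 and ADAMTS1) and 6 lower (MMP1, MMP2, MMP9, MMP14, MMP15 and TIMP2), where 15.7% of all tested genes were called, 6.99% higher and 8.75% lower. With U87 EV replicate 1 left out, 9 were called, TIMP1 besides these 8, where 47.1% of all genes were. The median log2 fold change of the 9 genes with more than 3 reads in some library of this comparison was -0.71, against 0.00 over all tested genes, and the median of its absolute value was 0.93 against 0.35.

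**Figure D1:**
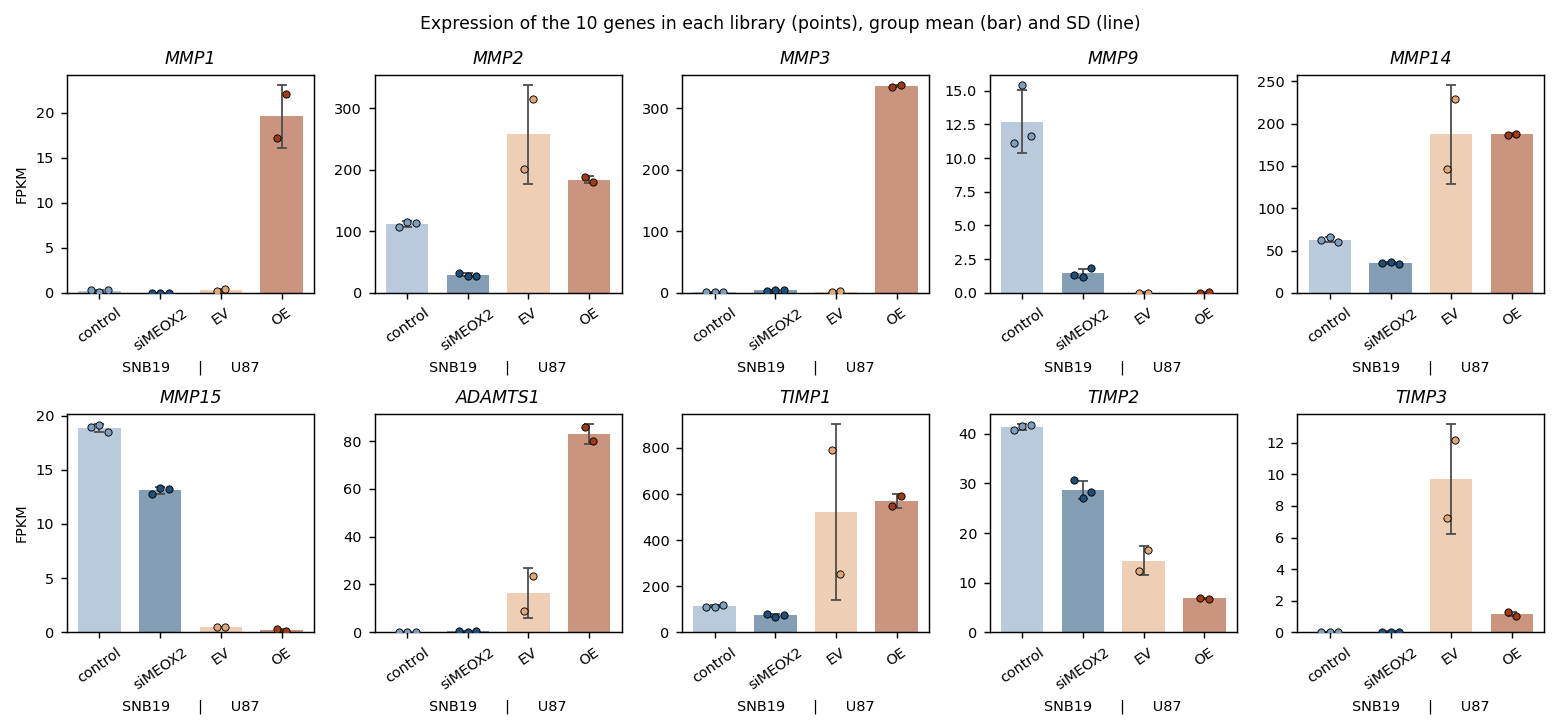
FPKM of each gene (vertical axis, linear and starting at 0, scaled per panel) in the 4 groups; points are libraries, bars group means and lines SD. MMP2, MMP9 and MMP14 were lower in all 3 siMEOX2 libraries than in all 3 control libraries, MMP3 and ADAMTS1 were highest in U87 MEOX2 OE, and the U87 EV libraries lie far apart for TIMP1 (791 and 251 FPKM).

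The gelatinases showed the largest drops among the well-expressed genes. MMP2, which degrades denatured collagen and type IV collagen, was at 106, 115 and 113 FPKM in SNB19 control and at 32.4, 27.9 and 27.9 FPKM in SNB19 siMEOX2. The groups did not overlap and MMP2 fell by 2.01 (log2, SE 0.13, edgeR adjusted p = 6.9e-05), a 4.03-fold decrease. MMP9, the other gelatinase, was at 11.1, 15.4 and 11.6 FPKM in control and 1.31, 1.19 and 1.85 FPKM after knockdown. All control values lay above all knockdown values, and MMP9 fell by 3.22 (log2, SE 0.28, adjusted p = 0.00032), a 9.30-fold decrease.

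The membrane-type enzymes fell less. MMP14, the activator of proMMP2 at the cell surface, was at 62.3, 65.8 and 60.6 FPKM in control and 35.6, 36.2 and 33.8 FPKM in siMEOX2. It fell by 0.93 (log2, SE 0.11, edgeR adjusted p = 0.0011). MMP15 was at 19.0, 19.2 and 18.5 FPKM in control and 12.8, 13.3 and 13.2 FPKM in siMEOX2, and the groups did not overlap. MMP15 fell by 0.62 (log2, SE 0.17, adjusted p = 0.042), a call that was lost when any 1 of the 6 SNB19 libraries was left out (log2 -0.64 to -0.61, adjusted p = 0.12 to 0.14).

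MMP1 and MMP3, neighbours on chromosome 11, were called in opposite directions. The collagenase MMP1 was at the limit of detection, with 9, 3 and 9 reads in control and 1, 0 and 1 in siMEOX2. Its call (edgeR adjusted p = 0.015) rests on 21 against 2 reads, a ratio of 10.1 with a 95% interval of 2.47 to 89.1 that covers counting error only. The call was lost without SNB19 control replicate 1, SNB19 control replicate 3 or SNB19 siMEOX2 replicate 2 (adjusted p = 0.053 to 0.057). The stromelysin MMP3 was at 2.36, 1.92 and 1.86 FPKM in control and 3.64, 4.52 and 4.02 FPKM in siMEOX2. MMP3 rose by 0.89 (log2, SE 0.15, adjusted p = 0.0045), and every siMEOX2 library lay above every control library. ADAMTS1, which cleaves the proteoglycans versican and aggrecan, rose from 0.12, 0.06 and 0.14 FPKM to 0.39, 0.26 and 0.35 FPKM (log2 1.53, SE 0.37, adjusted p = 0.023). This rise, at a very low level, was no longer called when any 1 SNB19 library other than siMEOX2 replicate 2 was left out (adjusted p = 0.051 to 0.082).

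Among the inhibitors, TIMP2 was at 40.7, 41.6 and 41.8 FPKM in control and 30.6, 27.1 and 28.2 FPKM in siMEOX2. It fell by 0.62 (log2, SE 0.10, edgeR adjusted p = 0.0044). TIMP1, a broad inhibitor of secreted MMPs, was at 109, 111 and 118 FPKM in control and 78.1, 67.0 and 73.2 FPKM in siMEOX2. The groups did not overlap, but the fit over all 10 libraries gave a log2 difference of -0.71 with an SE of 0.41 and made no call (adjusted p = 0.28). The discordant U87 EV pair enters this SE. Without U87 EV replicate 1 the difference was -0.71 with an SE of 0.06 (adjusted p = 3.2e-10), without U87 EV replicate 2 it was -0.70 (adjusted p = 1.3e-10), and the fit of SNB19 libraries alone gave -0.70 with an adjusted p of 4.7e-09. TIMP3, an inhibitor bound to the matrix, had 0 to 3 reads in each SNB19 library, so no fold is given.

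The summed level of the enzymes moved more than that of the inhibitors in SNB19. The 6 MMPs together were at 201, 218 and 206 FPKM in control and at 85.7, 83.2 and 80.9 FPKM in siMEOX2, and the 3 TIMPs were at 150, 152 and 159 FPKM against 109, 94.1 and 102 FPKM. The ratio of TIMP to MMP FPKM was therefore 0.70 to 0.77 in control and 1.13 to 1.27 in siMEOX2, with no overlap. The sums are descriptions of transcript levels and no test was run on them. TIMP1 and MMP2 were the most abundant in control, where their ranges overlapped, and TIMP1, MMP14, MMP2 and TIMP2 were the most abundant after knockdown, where the ranges of MMP2 and TIMP2 overlapped.

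**Figure D2:**
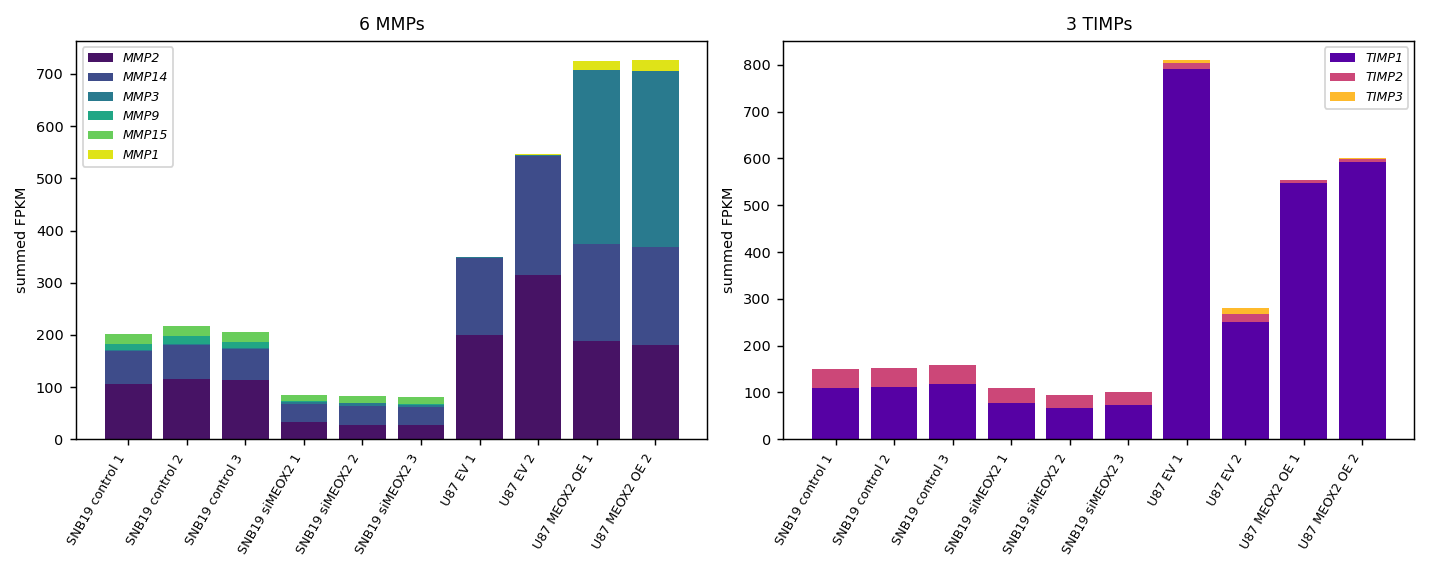
Summed FPKM (vertical axes, linear from 0) of the 6 MMPs (left) and 3 TIMPs (right) in each library, stacked by gene. The MMP sum was 201 to 218 FPKM in SNB19 control and 80.9 to 85.7 FPKM in siMEOX2, and MMP3 made up 46.0% and 46.3% of it in the U87 MEOX2 OE libraries.

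Overexpression of MEOX2 in U87 moved the set in another pattern. Of the 10 genes, 7 were called, 3 higher (MMP1, MMP3 and ADAMTS1) and 4 lower (MMP2, MMP15, TIMP2 and TIMP3), where 26.2% of all tested genes were called, 11.3% higher and 14.9% lower. MMP1 passed the filter on low counts only because of the OE libraries, which fixed its direction, so its call is not read against these shares. With U87 EV replicate 1 left out, 9 were called, TIMP1 (higher) and MMP14 (lower) besides these 7, where 38.9% of all genes were. The median log2 fold change of the 9 genes with more than 3 reads in some library was -0.24, against -0.02 over all tested genes, and the median of its absolute value was 1.46 against 0.64. These calls use the spread pooled over all groups. A fit of the 4 U87 libraries alone called 0 of 14180 genes by edgeR, with 2643 genes and 5 members at an unadjusted p under 0.05, while DESeq2 over all libraries called the same 7 members.

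The gene with the largest change was MMP3. MMP3, which cleaves matrix proteins and activates other proMMPs, was at 2.12 and 2.40 FPKM in U87 EV (70 and 69 reads) and at 334 and 337 FPKM in U87 MEOX2 OE (8574 and 10099 reads). It rose by 6.98 on the log2 scale (SE 0.21, edgeR adjusted p = 6.1e-07), a 126-fold increase, and by 7.16 without U87 EV replicate 1. MMP1 was at 0.19 and 0.40 FPKM in EV and 17.2 and 22.1 FPKM in OE, from 6 and 11 to 424 and 637 reads. It rose by 5.86 (log2, SE 0.39, adjusted p = 4.7e-05), and by 5.66 without that library. MMP1 passed the filter on low counts through the OE libraries, so that it was tested at all depended on this difference.

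ADAMTS1 was at 9.10 and 23.7 FPKM in EV and 85.9 and 80.1 FPKM in OE. It rose by 2.19 (log2, SE 0.32, edgeR adjusted p = 0.0017) with all libraries, and by 1.84 when U87 EV replicate 1 was left out. Both OE libraries lay above both EV libraries for MMP1, MMP3 and ADAMTS1.

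MMP2, MMP15 and 2 TIMPs fell. MMP2 was at 201 and 314 FPKM in EV and 188 and 180 FPKM in OE, so both OE libraries lay below both EV libraries. MMP2 fell by 0.69 (log2, SE 0.15, edgeR adjusted p = 0.011), and by 0.74 without U87 EV replicate 1. That call was lost without U87 MEOX2 OE replicate 1 (adjusted p = 0.080) or replicate 2 (adjusted p = 0.087). MMP15 was barely expressed in U87, at 0.52 and 0.50 FPKM in EV and 0.31 and 0.14 FPKM in OE, and fell by 1.46 (log2, SE 0.31, adjusted p = 0.0098), or by 1.16 with U87 EV replicate 1 left out. The call was lost without U87 MEOX2 OE replicate 2 (log2 -0.98, adjusted p = 0.066).

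TIMP2 was at 12.4 and 16.5 FPKM in EV and 6.90 and 6.77 FPKM in OE. It fell by 1.30 (log2, SE 0.13, edgeR adjusted p = 0.00023), and by 1.24 without U87 EV replicate 1. TIMP3 was at 7.25 and 12.2 FPKM in EV and 1.27 and 1.05 FPKM in OE. It fell by 3.26 (log2, SE 0.36, adjusted p = 0.00039), a 9.58-fold decrease, and by 3.36 without that library.

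The remaining genes were not called with all libraries. MMP14 was at 146 and 229 FPKM in EV and 186 and 188 FPKM in OE. By FPKM the EV libraries thus lay on either side of the OE libraries. With library sizes scaled as in the fit (TMM), its log2 levels were 9.87 and 10.07 in EV and 9.75 and 9.79 in OE. On that scale both EV libraries lay above both OE libraries. The fitted log2 difference of MMP14 was -0.20 (SE 0.13, edgeR adjusted p = 0.29). Without U87 EV replicate 1 the difference was -0.25, from a fit with 1 EV library. MMP9 had 0 and 1 reads in EV and 0 and 2 reads in OE, at or under the floor of 3 reads, so no fold is given.

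TIMP1 turned on which EV library was used. It was at 791 FPKM in U87 EV replicate 1, 251 FPKM in U87 EV replicate 2 and 547 and 592 FPKM in OE. With all libraries the log2 difference was -0.24 (SE 0.49, edgeR adjusted p = 0.75). Without U87 EV replicate 1 TIMP1 was higher in OE by 1.22 on the log2 scale. Without U87 EV replicate 2 it was lower in OE, with a log2 difference of -0.90. Each of these fits holds 1 EV library, so no p-value is given for them. TIMP1 has the shortest exon length of the set, 1541 bp, and U87 EV replicate 1 had 5.38% of its reads in genes under 1000 bp, against 2.43% to 2.94% in the others. The part of gene length in the TIMP1 values was not tested.

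**Figure D3:**
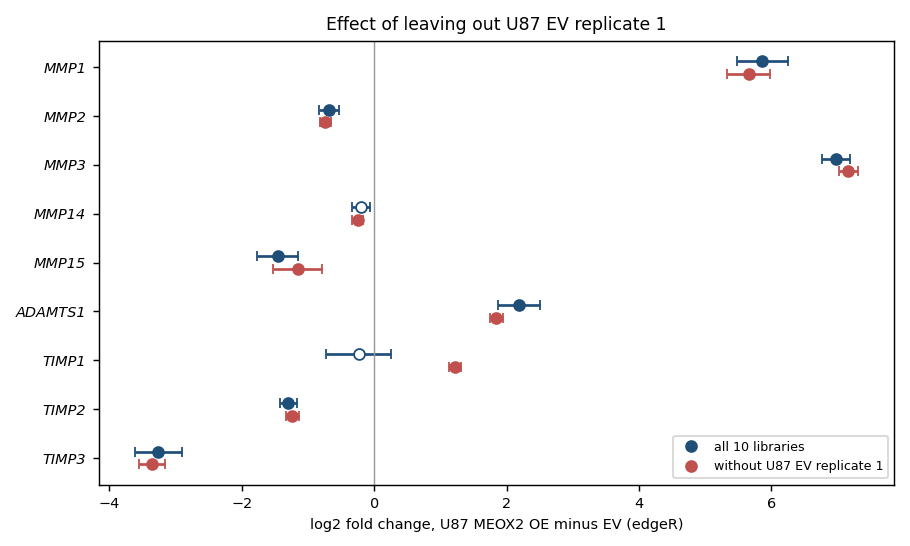
Log2 fold change (horizontal axis) of 9 genes between U87 MEOX2 OE and EV from edgeR, with SE as bars, using all 10 libraries (blue) or leaving out U87 EV replicate 1 (red); filled points have an adjusted p under 0.05. TIMP1 moved from -0.24 to 1.22, while MMP3 stayed at about 7 in both fits. The red fit holds 1 U87 EV library, so its SE and filled points hold no spread between EV libraries.

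In U87 the composition of the enzyme pool changed with MEOX2. MMP3 made up 0.61% and 0.44% of the summed FPKM of the 6 MMPs in EV and 46.0% and 46.3% in OE. The MMP sum was 349 and 546 FPKM in EV and 726 and 727 FPKM in OE. These sums depend on how libraries are scaled. The TMM factor of the fit was 0.69 in U87 EV replicate 1 and 0.95 to 0.96 in the other U87 libraries. Relative to those, the FPKM of U87 EV replicate 1 was therefore lower than on the scale of the fit. The ratio of MMP14 to TIMP2 FPKM, the pair that forms the proMMP2 activation complex, was 11.8 and 13.8 in EV and 27.0 and 27.8 in OE, whereas in SNB19 it was 1.45 to 1.58 in control and 1.16 to 1.34 in siMEOX2. The ratio of TIMP to MMP FPKM was 2.32 and 0.51 in EV, on either side of the 0.76 and 0.82 in OE.

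MMP1 and MMP3 lie in the MMP cluster at 11q22 of chromosome 11, MMP1 at chr11:102789920-102798160 and MMP3 at chr11:102835801-102843803, both on the minus strand. Of the 10 genes listed there, 5 were tested. After overexpression 4 of these rose (WTAPP1, MMP3, MMP10 and MMP1) and none fell, with MMP7 not called (adjusted p = 0.50), and the count was 4 and none also without U87 EV replicate 1. Nothing is read from this count against the 11.3% of all genes called higher, since WTAPP1, MMP10 and MMP1 passed the filter on low counts only because of the OE libraries, so that being tested fixed their direction. The stromelysin MMP10, whose start site lies 17.5 kb from that of MMP1, had no read in either EV library and 13 and 12 reads in OE, at least 9.27-fold higher against 3 reads over the EV group. WTAPP1, a pseudogene on the opposite strand that shares 150 bp of exon with MMP1 and 32 bp with MMP3, had no read in EV and 14 and 18 reads in OE, at least 11.9-fold higher. The library kit does not mark strand, so reads in the shared bases cannot be assigned, but the WTAPP1 counts were far below those of MMP1 and MMP3.

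Of the cluster genes that were not tested, MMP12 had no read in EV and 6 and 10 reads in OE, and MMP8, MMP13, MMP20 and MMP27 had means below 0.06 FPKM in every group. After knockdown in SNB19, 1 of the 5 tested genes was called higher (MMP3) and 2 lower (MMP1 and MMP7). MMP7, matrilysin, fell from 0.65, 0.66 and 0.92 FPKM to 0.14, 0.27 and 0.12 FPKM (log2 -2.14, SE 0.45, edgeR adjusted p = 0.014). MMP7 passed the filter only through SNB19 control, which fixed its direction in the same way.

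**Figure D4:**
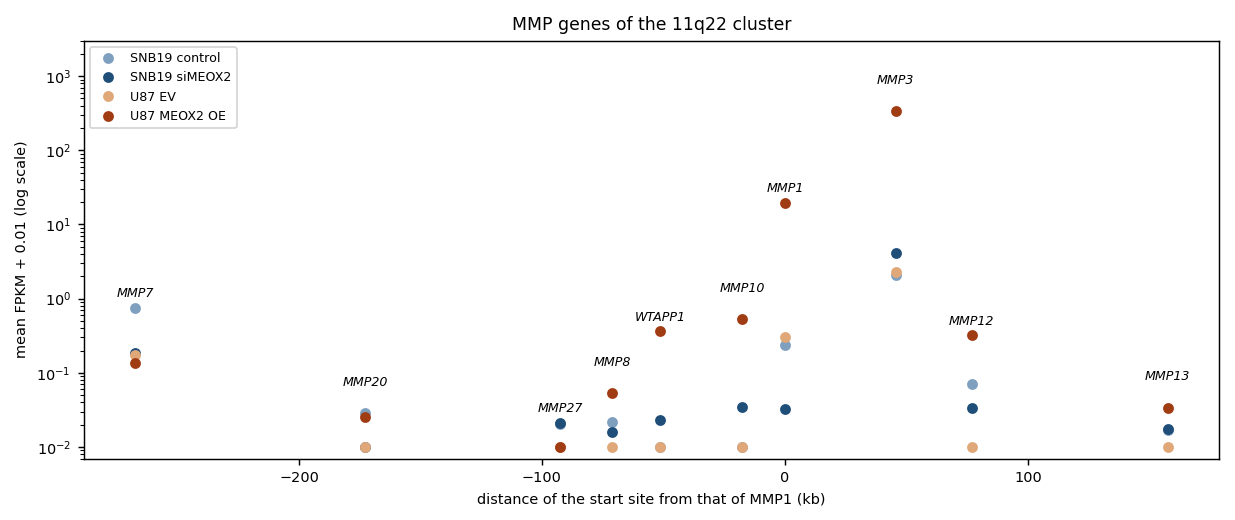
Mean FPKM plus 0.01 (vertical axis, log scale) of the 10 genes of the 11q22 cluster against the distance of each start site from that of MMP1 in kb (horizontal axis), for the 4 groups; points at 0.01 are genes with no read. In U87 MEOX2 OE, MMP3 reached 335 FPKM and MMP1 19.6 FPKM, and no other gene of the cluster exceeded 1 FPKM in any group.

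The knockdown and the overexpression share no library, and their calls are set side by side here. Both come from 1 fit that shares the spread of each gene over all groups, so the calls are not independent. Of the 10 genes, 6 were called in both, 5 of them in the same direction, where 6.04% of all tested genes were called in both and 76.0% of those in the same direction. The gene called in opposite directions was MMP1, lower with less MEOX2 and higher with more, and its direction in U87 was fixed by the filter on low counts. In the fit without U87 EV replicate 1, 8 genes were called in both, 6 in the same direction, where 22.6% of all genes were called in both and 65.4% of those in the same direction. With all libraries MMP2, MMP15 and TIMP2 were called lower in both, and MMP3 and ADAMTS1 higher in both.

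**Figure D5:**
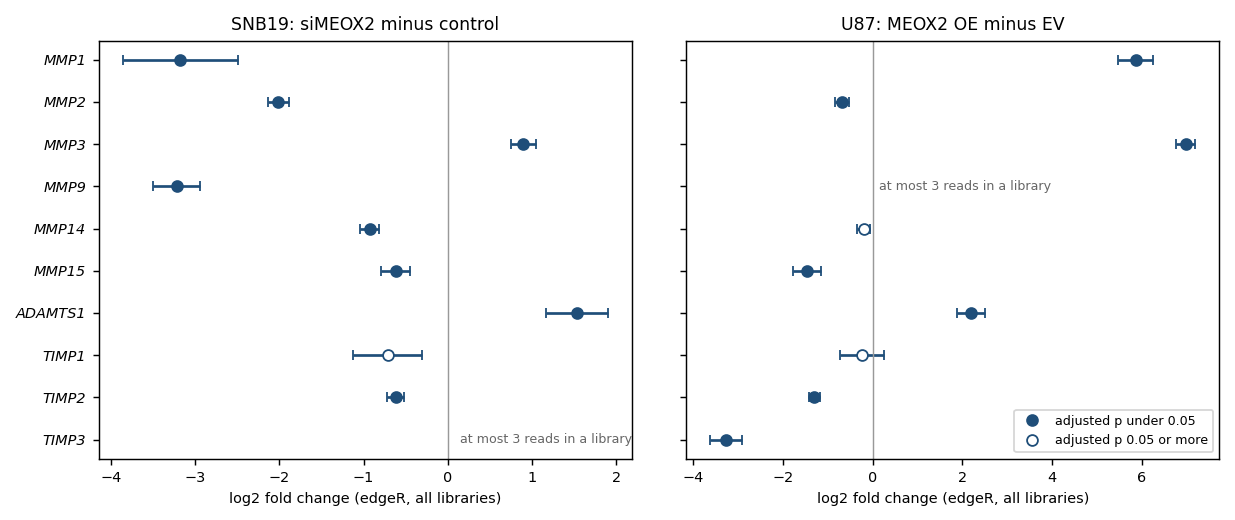
Log2 fold change (horizontal axes) of the 10 genes after MEOX2 knockdown in SNB19 (left) and MEOX2 overexpression in U87 (right) from edgeR over all libraries, with SE as bars; filled points have an adjusted p under 0.05. MMP1 was at -3.17 on the left and 5.86 on the right, and MMP3 was at 0.89 and 6.98.

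The difference between the lines was tested in the same fit, as the effect of more MEOX2 in U87 (OE minus EV) minus the effect of more MEOX2 in SNB19 (control minus siMEOX2). Of the 10 genes, 6 were called, 2 higher and 4 lower, where 24.4% of all tested genes were called, 10.2% higher and 14.2% lower. The count without U87 EV replicate 1 was 8, with TIMP1 and TIMP3 besides these 6, where 43.0% of all genes were called. The effect was more positive in U87 for MMP3 (log2 7.87, SE 0.25, edgeR adjusted p = 1.7e-06) and ADAMTS1 (3.72, SE 0.48, adjusted p = 0.00082). It was more negative for MMP2 (-2.70, SE 0.20, adjusted p = 4.9e-05) and TIMP2 (-1.92, SE 0.16, adjusted p = 9.5e-05). The same held for MMP15 (-2.07, SE 0.35, adjusted p = 0.0033) and MMP14 (-1.13, SE 0.17, adjusted p = 0.0020). With that library left out the log2 differences were 8.05 for MMP3, 3.37 for ADAMTS1, -2.75 for MMP2, -1.85 for TIMP2, -1.77 for MMP15 and -1.17 for MMP14, all called.

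MMP1 was not called as different between the lines (2.69, SE 1.32, edgeR adjusted p = 0.16), and its difference was 2.47 without U87 EV replicate 1. TIMP1 was not called either (-0.95, SE 0.64, edgeR adjusted p = 0.30). The TIMP1 difference was 0.51 without U87 EV replicate 1 and -1.61 without U87 EV replicate 2, from fits that each hold 1 EV library. For MMP9 and TIMP3, 1 of the lines had at most 3 reads in each library, so no difference is given. Cell line, the way MEOX2 was changed and the size of that change cannot be told apart in this comparison.

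Before MEOX2 was changed, the lines already differed in most of the set. Between SNB19 control and U87 EV, 9 of the 10 genes were called, 3 higher in SNB19 and 6 lower, where 56.9% of all tested genes were called, 28.1% higher and 28.8% lower. The count without U87 EV replicate 1 was 8, where 63.4% of all genes were called. MMP9 passed the filter on low counts only through SNB19 libraries and TIMP3 only through U87 libraries, which fixed their directions here. Their calls are therefore not read against these shares. MMP9 was expressed in SNB19, with 11.1 to 15.4 FPKM there and 1 read in the U87 EV libraries together, a ratio of 887 with a 95% counting interval of 159 to 35048. MMP15 was 28.3-fold higher in SNB19 control (log2 4.82, SE 0.25, edgeR adjusted p = 7.8e-07), and TIMP2 was 2.23-fold higher (log2 1.16, SE 0.12, adjusted p = 3.9e-05). The log2 values without U87 EV replicate 1 were 5.08 and 1.17.

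The genes higher in U87 EV included TIMP3, with 1326 reads against 4 in SNB19 control, a ratio of 502 with a 95% counting interval of 196 to 1847. ADAMTS1 was 184-fold higher in U87 EV (edgeR adjusted p = 5.1e-07), MMP14 3.77-fold (adjusted p = 2.3e-06) and MMP2 2.92-fold (adjusted p = 1.5e-05). As log2 differences of SNB19 minus U87 these were -7.52, -1.91 and -1.55, and without U87 EV replicate 1 -7.91, -2.01 and -1.65. TIMP1 was 6.57-fold higher (log2 difference of SNB19 minus U87 -2.72, SE 0.45, adjusted p = 0.00087), and without U87 EV replicate 1 this difference was -1.31. MMP3 was at 1.86 to 2.36 FPKM in SNB19 control and 2.12 and 2.40 FPKM in U87 EV, ranges that overlapped by FPKM. With library sizes scaled as in the fit (TMM), log2 levels were 2.25, 1.96 and 1.89 in SNB19 control and 2.67 and 2.40 in U87 EV. On that scale MMP3 did not overlap between the groups. Its call (adjusted p = 0.027) was lost without U87 EV replicate 1 (adjusted p = 0.12), SNB19 control replicate 2 (0.082) or SNB19 control replicate 3 (0.092). Line, transient transfection, viral vector and puromycin selection cannot be told apart here.

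The order of levels differed with the line. In U87 EV the order of mean FPKM was TIMP1, MMP2, MMP14, ADAMTS1, TIMP2, TIMP3, MMP3, MMP15, MMP1 and MMP9, where TIMP1 and MMP2, MMP2 and MMP14, and ADAMTS1 and TIMP2 overlapped. Within each EV library MMP2 was nonetheless above MMP14, by a ratio of 1.37 in both. In U87 MEOX2 OE MMP3 came second after TIMP1, and only MMP14 and MMP2 overlapped.

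The wider family was followed in 8 lists of related genes. Each count is read against the shares of all genes called, 6.99% higher and 8.75% lower after knockdown and 11.3% higher and 14.9% lower after overexpression, or, without U87 EV replicate 1, 22.5% and 24.6% after knockdown and 20.4% and 18.4% after overexpression.

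Of 17 other MMPs, 9 were tested. After knockdown in SNB19, 3 of them fell (MMP7, MMP28 and MMP19) and none rose, where 8.75% of all genes fell and 6.99% rose. MMP28, epilysin, fell from 10.3, 10.3 and 9.22 FPKM to 3.72, 3.43 and 2.78 FPKM (log2 -1.67, SE 0.24, edgeR adjusted p = 0.0027). After overexpression in U87, 3 rose (MMP10, MMP24 and MMP19) and 1 fell (MMP28, which had 26 and 12 reads in EV and 3 and 2 in OE), where 11.3% and 14.9% of all genes did. MMP10 passed the filter only through OE and MMP7 only through SNB19 control. The log2 difference of MMP28 was -2.97, and -2.13 without U87 EV replicate 1. MMP24, a membrane-type enzyme, was at 0.15 and 0.63 FPKM in EV and 1.30 and 1.07 FPKM in OE (log2 1.46, adjusted p = 0.030), a difference of 0.94 without that library. The counts without it were 4 lower and none higher after knockdown (24.6% and 22.5% of all genes), and 4 higher and 1 lower after overexpression (20.4% and 18.4%).

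Of the other ADAMTS proteases, 16 of 18 were tested. After overexpression in U87, 3 rose (ADAMTS5, ADAMTS18 and ADAMTS6) and 1 fell (ADAMTS12), where 11.3% of all genes rose and 14.9% fell. ADAMTS18 passed the filter only through OE. ADAMTS5, an aggrecanase, rose from 1.74 and 6.85 FPKM to 68.8 and 59.8 FPKM (log2 3.79, SE 0.49, edgeR adjusted p = 0.00089), and ADAMTS6 from 0.32 and 1.54 FPKM to 6.44 and 5.28 FPKM (log2 2.55, adjusted p = 0.0036). The log2 differences without U87 EV replicate 1 were 3.26 for ADAMTS5 and 1.96 for ADAMTS6. After knockdown in SNB19 none rose and 2 fell (ADAMTS10 and ADAMTS7), which is 2 of 16 where 15.7% of all genes were called. ADAMTS10 fell from 13.4, 12.7 and 12.5 FPKM to 5.11, 5.27 and 4.48 FPKM (log2 -1.47, SE 0.18, adjusted p = 0.0018). When U87 EV replicate 1 was left out, 2 were higher and 4 lower after knockdown (47.1% of all genes called), and 3 higher and 3 lower after overexpression (38.9%).

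Of 9 ADAM sheddases, which release membrane-bound proteins, 8 were tested. In U87 none rose and ADAM8 and ADAM15 fell after overexpression, where 14.9% of all genes fell. In SNB19, 1 of the 8, ADAM8, was called after knockdown, where 15.7% of all genes were. ADAM8 was at 22.2 and 29.03 FPKM in U87 EV and 8.31 and 7.93 FPKM in OE (log2 -1.88, SE 0.15, edgeR adjusted p = 9.0e-05), and the log2 difference was -1.80 without U87 EV replicate 1. When that library was left out, 6 of the 8 were lower and none higher after overexpression (18.4% and 20.4% of all genes), and 4 were lower and 1 higher after knockdown (24.6% and 22.5%).

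Of 8 other protease inhibitors, 7 were tested. TFPI2, a Kunitz-type inhibitor of serine proteases in the matrix, rose in U87 from 159 and 190 FPKM to 1069 and 1132 FPKM (log2 2.43, SE 0.25, edgeR adjusted p = 0.00079), and by 2.57 without U87 EV replicate 1. RECK, a membrane-anchored MMP inhibitor, was lower in both lines after the change in MEOX2, with log2 -0.50 in U87 (adjusted p = 0.022, and -0.41 without that library) and -0.42 in SNB19 (adjusted p = 0.025). THBS2 fell in SNB19 (log2 -1.43, adjusted p = 0.0065). In all, 1 rose and 1 fell in U87 (26.2% of all genes called), and none rose and 2 fell in SNB19 (15.7%). The counts without U87 EV replicate 1 were 3 higher and 1 lower in U87 (38.9%) and 1 higher and 3 lower in SNB19 (47.1%).

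Of 14 activators and cofactors of MMPs that were tested, 6 fell, none rose and 8 were not called in SNB19 after knockdown, where 8.75% of all genes fell and 6.99% rose. CD44, a receptor that holds MMP9 at the cell surface, fell from 29.3, 28.2 and 29.2 FPKM to 13.3, 13.97 and 13.05 FPKM (log2 -1.19, edgeR adjusted p = 0.00030). FURIN, the convertase that activates MMP14, fell by 0.83 (log2, adjusted p = 0.0030). PLAUR and PLAU, the urokinase receptor and urokinase, fell by 0.67 and 0.64. In U87, 2 fell (PLAU, log2 -0.88, and CAV1, log2 -0.51) and none rose, where 14.9% and 11.3% of all genes did, and without U87 EV replicate 1 these log2 values were -0.67 and -0.52. Leaving out that library gave 11 lower and 1 higher in SNB19, where 24.6% and 22.5% of all genes were, and 4 lower and 2 higher in U87, where 18.4% and 20.4% were.

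Of the AP-1 and ETS transcription factors, known to act on MMP promoters, all 11 were tested. After overexpression in U87, 4 rose (FOSB, JUN, ETS2 and FOSL1) and none fell, where 11.3% of all genes rose and 14.9% fell. JUN rose from 45.8 and 110 FPKM to 308 and 325 FPKM (log2 1.87, SE 0.24, edgeR adjusted p = 0.00086), and ETS2 from 9.51 and 20.1 FPKM to 44.8 and 42.2 FPKM (log2 1.38, adjusted p = 0.0014). Their log2 differences without U87 EV replicate 1 were 1.57 and 1.15. After knockdown in SNB19, FOS and FOSB rose (log2 1.36 and 0.93) and JUND fell (log2 -0.61), which is 3 of 11 where 15.7% of all genes were called. When U87 EV replicate 1 was left out, 8 rose and 2 fell in SNB19, where 22.5% of all genes rose and 24.6% fell, and 6 rose and none fell in U87, where 20.4% rose and 18.4% fell.

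Of 12 matrix proteins that these enzymes cleave, 9 were tested. In U87, 4 fell and 1 rose after overexpression, where 14.9% of all genes fell and 11.3% rose. COL1A1, the main chain of type I collagen, fell from 77.9 and 188 FPKM to 15.1 and 13.3 FPKM (log2 -3.38, SE 0.27, edgeR adjusted p = 8.4e-05), and FN1, fibronectin, from 22.5 and 105 FPKM to 15.2 and 12.8 FPKM (log2 -2.29, adjusted p = 0.0073). The log2 differences without U87 EV replicate 1 were -3.69 for COL1A1 and -2.88 for FN1. In SNB19, 4 fell and 1 rose after knockdown, where 8.75% of all genes fell and 6.99% rose. VCAN, the proteoglycan versican, fell from 3.27, 3.38 and 3.43 FPKM to 0.93, 1.07 and 0.93 FPKM (log2 -1.87, adjusted p = 0.014), and FN1 from 57.0, 52.8 and 56.6 FPKM to 17.9, 24.2 and 23.2 FPKM (log2 -1.44, adjusted p = 0.027). BCAN, the brain proteoglycan brevican, rose in both lines (log2 1.15 in SNB19 and 0.83 in U87, or 1.23 in U87 without U87 EV replicate 1). With that library left out 11 were tested, of which 6 were lower and 2 higher after knockdown (24.6% and 22.5% of all genes) and 4 lower and 1 higher after overexpression (18.4% and 20.4%). No list was tested as a whole.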

How the data were processed

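Poly-A RNA of 10 libraries was sequenced in pairs with a kit that does not mark strand. The authors aligned reads with HISAT2 to GRCh38 and counted them with HTSeq 0.11.2, per the labels, and deposited gene counts and FPKM values in 1 table. The submitters' processing notes also name DESeq2 1.26.0. The deposited FPKM equals the count divided by the column total and by 1 length per gene, which for the 10 genes is the GENCODE v29 union of exons. The FPKM of a library is thus relative to its own total, and U87 EV replicate 1 shifts accordingly.

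Counts were analysed in R 4.3.3 with edgeR 4.0.16 (filterByExpr, TMM, quasi-likelihood F test, groups as the only term, Benjamini-Hochberg adjustment over 17312 genes, threshold 0.05) and drawn with matplotlib. SE is the absolute log2 fold change divided by the square root of F. The scripts were tested on simulated data. Alternatives were DESeq2 1.42.0 (size factors or Wald test), no filter, only the groups compared, a replicate block and each library left out in turn. For levels, the alternative was FPKM with TMM library sizes. Groups came from sample titles. The treatment labels of 3 U87 libraries carry another digit after MEOX, and both U87 MEOX2 OE titles carry the same bracketed name. The counting intervals and the floor of 3 reads cover counting error only.

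Besides the 10 genes and MEOX2, up to 4 called genes with the largest change were named per list and comparison, and a few others after their values were seen (MMP8, MMP12, MMP13, MMP20, MMP27). The 10 genes and the lists were chosen with earlier results of these data known. Sequences were read from GENCODE v29 transcripts.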

Additional observations from a re-analysis of the deposited data

Results flagged for a closer look

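The effect of MEOX2 differed between the cell lines for 6 of the 10 genes, by the test of the difference itself in the edgeR fit over all libraries. Expressed as the effect of more MEOX2 in U87 minus that in SNB19, the log2 difference was 7.87 for MMP3, 3.72 for ADAMTS1, -1.13 for MMP14, -1.92 for TIMP2, -2.07 for MMP15 and -2.70 for MMP2. Without U87 EV replicate 1 the values were 8.05, 3.37, -1.17, -1.85, -1.77 and -2.75, and all 6 were called. Line, reagent, puromycin selection and the size of the change in MEOX2 cannot be told apart. No group held the 4 libraries needed for a search for outlying values.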

How the results depend on the processing

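The counts of called genes were 8 after knockdown, 7 after overexpression, 9 between the lines and 6 for the difference of effects. When each library was left out in turn they ranged from 5 to 9, 5 to 9, 8 to 9 and 6 to 8. The lowest count after knockdown, 5, came without SNB19 control replicate 1 or SNB19 control replicate 3, when MMP1, MMP15 and ADAMTS1 were no longer called. The lowest count after overexpression, 5, came without U87 MEOX2 OE replicate 2. The fit of only the U87 libraries called 0 members after overexpression (smallest adjusted p = 0.12), with fewer libraries in the fit. Leaving out U87 EV replicate 1 or 2 raised the calls among all genes from 2725 to 8626 or 8700 after knockdown and from 4538 to 7117 or 10929 after overexpression.

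The log2 fold change of TIMP1 after overexpression reversed sign, at 0.12 with the replicate block (and 0.12 with U87 numbers crossed) and from -0.90 to 1.22 when libraries were left out. Its difference between lines ran from -1.61 to 0.51. With the replicate block, 6 members were called after knockdown, 6 after overexpression and 6 for the difference, with MMP15, TIMP2 (after knockdown) and MMP2 (after overexpression) lost, and 972 and 2126 genes in all after knockdown and overexpression. The deviations of same-numbered libraries from their group means correlated at 0.04, 0.00 and 0.06 in SNB19. Other-numbered SNB19 pairs gave -0.08 to 0.04. In U87, 2 libraries per group force equal sizes with opposite signs, -0.16 for same-numbered and 0.16 for crossed pairs. Whether same-numbered libraries belong together cannot be told from these values. With U87 numbers crossed, chosen after seeing the data, the counts were 7, 7 and 6 members, and 1786 and 3710 genes. After knockdown, every gene with more than 3 reads in some library of the comparison kept its direction in all alternatives that tested it. After overexpression the same held for every such gene except TIMP1. Replication at 2 libraries per U87 group limits precision there. Mean FPKM of each gene in each group was also computed with TMM library sizes. By that change 17 of these levels moved by their SD or more and 23 by less.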

Other observations

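Several genes of the wider lists were nearly confined to U87 in these libraries. TFPI2 had 0 to 2 reads in each SNB19 library and 6873 to 44438 reads in each U87 library. ADAMTS5 had 0 to 2 reads in each SNB19 library and 255 to 7923 reads in each U87 library. COL1A2 was at 0.06 to 0.10 FPKM in SNB19 and 20.8 to 136 FPKM in U87. Other genes of the lists went the other way, with 0 to 2 reads in each U87 library. Among these, ADAMTS10 had 360 to 1268 reads in each SNB19 library, COL4A1 791 to 1173 and ADAMTS15 243 to 343.

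PECAM1, an adhesion molecule of endothelial cells and the only one of the 3 endothelial markers at 1 FPKM or more, was at 4.12, 4.11 and 4.59 FPKM in SNB19 control and 0.85, 0.58 and 0.75 FPKM in SNB19 siMEOX2. It was named after its values were seen.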
